A study of Mus musculus with 12 samples.

Results

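The solute carrier genes, whose mouse symbols start with Slc, encode the largest superfamily of membrane transporters, and their messages were followed here through 4 stages of red blood cell formation in mouse bone marrow. The genes were taken by symbol (Slc, a family number, letters and a member number), and a gene was kept when 3 or more of the 12 libraries gave it an FPKM of 1 or higher. FPKM is the number of sequenced fragments of a gene, divided by transcript length and by how many fragments of that library mapped. Slc4a1, Slc11a2, Slc25a37, Slc25a38 and Slc40a1, which serve anion exchange and iron and heme metabolism, were left out by the rule. Of 313 Slc symbols in the deposited table, 308 remained without these 5 genes, and 184 of them passed the filter, among 29838 genes in all. The filter took the 12 libraries without regard to stage.

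Solute carriers move small molecules across membranes, as exchangers, cotransporters driven by ion gradients, or passive carriers. Those of the plasma membrane take up amino acids, sugars, nucleosides, vitamins and metals, those of the Slc25 family serve the inner mitochondrial membrane, and those of the Slc35 family carry nucleotide sugars into the Golgi apparatus and the endoplasmic reticulum. A differentiating erythroblast needs glycine for heme, amino acids for globin, and iron, and it loses its organelles and its nucleus at the end of the process.

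The RNA came from the bone marrow (BM) of wild-type (WT) male C57BL/6 mice aged 8 weeks, with no treatment. Cells were depleted of CD45-positive cells on a column and sorted as live cells that were positive for Ter119 and negative for CD45, CD11b and GR1. Proerythroblasts (Pro) were gated as CD44 high and Ter119 low, and basophilic (Baso), polychromatic (Poly) and orthochromatic (Ortho) erythroblasts by CD44 staining against cell size. Each stage had 3 libraries, and 2 of the Ortho libraries, replicates 2 and 3, were placed by their titles because their cell type is labelled only as erythroblast. The labels do not say whether the replicates came from separate animals, so the p-values measure the spread between these libraries. The study's methods describe Geek lysis and KAPA Hyper Prep libraries, and the labels Trizol extraction and NEBNext Ultra libraries.

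Library sums of FPKM ran from 505624 to 691033, and no whole fragments could be recovered from the low values, so the depth of the libraries is unknown. The hemoglobin share of this sum was 8.45 ± 1.95% (SD, n = 3) for Pro and 49.6 ± 2.74% for Ortho, with 35.1 ± 1.79% and 36.6 ± 1.56% for Baso and Poly. FPKM is relative to all fragments of a library, hemoglobin included. All 10 erythroid markers of the list used, among them Klf1 and Gata1, passed the filter. All 10 neutrophil markers (S100a8, S100a9, Ngp, Ltf, Camp, Elane, Mpo, Prtn3, Lcn2 and Mmp8) passed it as well, although the gates remove cells with CD11b or GR1. Their summed FPKM was 7274 to 9090 in Pro, 12489 to 14666 in Baso, 16092 to 19115 in Poly and 14336 to 17781 in Ortho, and no marker of this list was at 0. Of 10 macrophage markers, 4 passed (Adgre1, Csf1r, Cd68 and Vcam1), with sums of 29.9 to 36.2 in Pro and 63.4 to 74.8 in Ortho, whereas Marco and C1qb stayed under 1 in every library. B cell markers (all 10 passed) summed to 86.7 to 144 in Pro and 207 to 284 in Ortho, T and NK cell markers (4 of 10) to 23.0 to 35.1 and 37.9 to 44.9, and megakaryocyte markers (9 of 10) to 77.0 to 139 and 41.4 to 50.2. In these bulk samples, fewer cells of a type and less RNA per cell cannot be told apart.

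Most of the 184 Slc genes were present at every stage. Of them, 150 had an FPKM of at least 1 in all 12 libraries, and 10 reached it in only 3 to 5 libraries. The mean over the 12 libraries was at least 5 for 107 genes, at least 20 for 38 and at least 100 for 8, and its median was 6.63, compared with 8.78 over all 12994 genes that passed the same filter. Just inside the filter lay Slc35d3, Slc23a1 and Slc16a4, whose third-highest library value was 1.004, 1.06 and 1.06. Just outside it lay Slc29a2, Slc1a4 and Slc5a2, at 0.840, 0.869 and 0.902. The 124 genes below the filter did not exceed 2.02 in any library. For 5 of the 184 genes the symbol contains that of a carrier but the protein is no transporter (Slc7a6os, Slc4a1ap, Slc2a4rg-ps, Slc9a3r1 and Slc9a3r2). Slc9a3r1, a scaffold protein, was the most abundant of these, at 24.3 ± 0.406 in Pro and 41.8 ± 2.31 in Ortho.

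A few carriers supplied much of the total. The 10 most abundant Slc genes of a stage made up 41.5% of the summed Slc FPKM in Pro, 43.3% and 42.2% in Baso and Poly, and 45.3% in Ortho. In Pro the order began with the mitochondrial ADP/ATP carrier Slc25a5 (362 ± 72.5, SD, n = 3), the mitochondrial phosphate carrier Slc25a3 (276 ± 16.8) and the nucleoside transporter Slc29a1 (136 ± 4.896). In Baso and in Poly the most abundant was Slc1a5, a sodium-coupled transporter of glutamine and other neutral amino acids, at 216 ± 14.3 and 224 ± 1.26. In Ortho it was Slc25a39, which is required for glutathione import into mitochondria, at 239 ± 33.7, with libraries that overlapped those of Slc1a5 at 212 ± 14.04. The summed FPKM of the 184 genes was 3514 ± 115 in Pro, then 3490.2 ± 41.02 (Baso), 3469.9 ± 68.4 (Poly) and 3132 ± 23.4 (Ortho), so that the first 3 stages lay within the spread between replicates and the Ortho libraries lay below all others. As a share of all FPKM outside hemoglobin it was 0.741 ± 0.02205% in Pro and 0.929 ± 0.0192% in Ortho, without overlap between the libraries of these stages.

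Stages were compared gene by gene with limma on log2(FPKM + 1) over all 12994 genes, with p-values adjusted by the Benjamini-Hochberg method over all of them. A gene was called when its adjusted p was under 0.05 and its log2 fold change was at least 1 in either direction. This scale understates the change of genes with a low FPKM. Between Pro and Baso, 4 Slc genes were called higher in Baso (of all genes tested, 1.82% were) and 13 lower (8.54% of all genes). Between Baso and Poly, none was called higher (0.0616% of all genes) and 3 lower (0.454%). At an unadjusted p under 0.05, limma placed 40 Slc genes higher and 20 lower in Poly. The share of all genes at this threshold was not counted. Of all 12994 genes tested, 7143 had a log2 fold change above 0 at this step and 5849 below. Between Poly and Ortho, 1 was called higher in Ortho (1.05% of all genes) and 9 lower (4.81%). Between Pro and Ortho, the ends of the series, 9 were called higher in Ortho (6.33% of all genes) and 30 lower (23.8%), and 145 were not called. Without Ortho replicate 2, 14 were higher, with Slc16a7, Slc15a3, Slc25a45, Slc16a3 and Slc31a2 added, and without Baso replicate 3, 1 instead of 3 was lower in Poly than in Baso.

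The median log2 fold change of the 184 genes was -0.10 in Baso against Pro, where that of all genes tested was -0.23, and -0.07 in Ortho against Pro, where that of all genes was -0.42. In Poly against Baso it was 0.10 (all genes, 0.03) and in Ortho against Poly -0.04 (all genes, -0.08). By the adjusted p alone, 67 Slc genes were higher in Ortho than in Pro (22.7% of all genes) and 71 lower (53.2% of all genes). The counts by this criterion were 39 (14.9%) and 72 (42.1%) in Baso against Pro, 19 (6.58%) and 11 (5.77%) in Poly against Baso, and 8 (4.43%) and 31 (21.7%) in Ortho against Poly. The highest mean lay in Pro for 78 of the 184 genes (42.4%), in Baso for 15, in Poly for 37 and in Ortho for 54 (29.3%). Over all genes tested these shares were 54.8% for Pro and 22.1% for Ortho.

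The split between higher and lower depended on how the libraries were scaled. When all libraries were brought to the same sum with hemoglobin genes left out, 38 Slc genes were higher and 16 lower in Ortho than in Pro, that is 70.4% of the calls were higher instead of 23.1%. Centring each library on its median gave 36 higher and 17 lower (67.9%), and bringing all libraries to the same sum with hemoglobin included gave 4 higher and 48 lower (7.69%). The median of the Slc genes became 0.33, 0.33 and -0.38, and that of all genes moved from -0.42 to -0.03, -0.03 and -0.72, respectively, so the calls as deposited are relative to a general shift of -0.42. Baso against Pro moved in the same way, from 4 higher and 13 lower to 9 and 7 without hemoglobin, 10 and 7 with centring, and 4 and 17 with the same sum. The shares of all genes called under these scalings were not counted, so these splits cannot be read as particular to the Slc genes. No Slc gene printed here with a call changed its direction under any of these scalings. Among the calls lost both without hemoglobin and with centring were those of Slc25a1, Slc25a12 and Slc41a3 in Baso and in Ortho against Pro, and those of Slc14a1, Slc19a2, Slc31a1, Slc39a7 and Slc43a3 in Ortho against Pro.

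**Figure D1:**
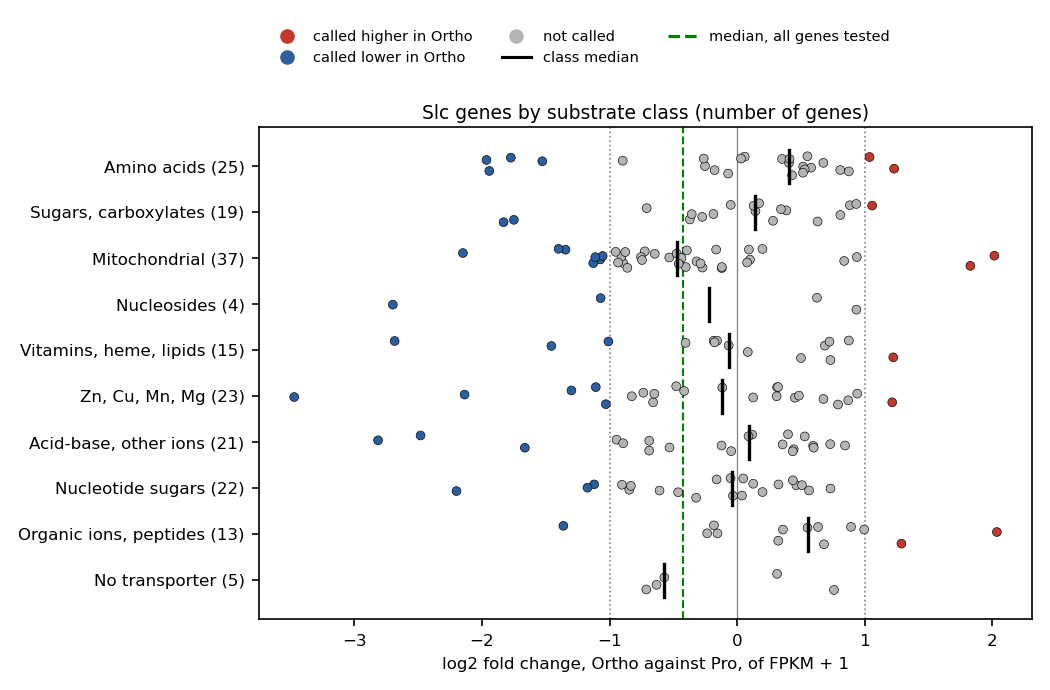
Log2 fold change of FPKM + 1 in Ortho against Pro (x axis) for the 184 Slc genes, 1 point a gene, in rows by substrate class. Red points were called higher and blue points lower in Ortho, black bars are class medians, the dashed green line is the median of all genes tested (-0.42), and most classes hold points on both sides of 0.

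Amino acid carriers held the largest increase at the first step, that of Slc6a9, and the largest decrease at the last, that of Slc6a20a. Of 25 genes of the class, 2 were called higher and 1 lower in Baso than in Pro (1.82% and 8.54% of all genes tested). In Ortho, 4 were lower than in Poly (4.81% of all genes), and 2 were higher and 4 lower than in Pro (6.33% and 23.8%). The last counts were 8 and 4 without hemoglobin, 5 and 4 with centring, and 0 and 5 with all libraries at the same sum. The class median of the log2 fold change in Ortho against Pro was 0.41, and it was above 0 under each scaling (0.06 with the same sum, 0.76 without hemoglobin and 0.80 with centring). The summed FPKM of the class was 749 ± 46.7 in Pro, followed by 1151 ± 46.3 for Baso, 1138 ± 28.98 for Poly and 907 ± 26.97 for Ortho (SD, n = 3), and its libraries did not overlap between Pro and any later stage.

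Slc6a9 encodes GLYT1, the carrier that supplies glycine, the amino acid condensed with succinyl-CoA in the committed step of heme synthesis. The gene spans 117834506 to 117875198 of chromosome 4 (mm10, the build of all positions here). The Pro libraries held 31.5, 58.9 and 26.5 FPKM, those of Baso 156, 143 and 155, those of Poly 158, 156 and 154 and those of Ortho 65.2, 78.02 and 87.5. All Baso and Poly libraries lay above all Pro and Ortho libraries, and the Ortho libraries lay above the Pro libraries. The log2 fold change was 2.01 (standard error of the fit, SE, 0.22) in Baso against Pro, -1.02 in Ortho against Poly and 1.04 in Ortho against Pro (limma, adjusted p = 2.11e-05, 0.00452 and 0.00122). The value at the last step was -0.91 without Ortho replicate 1, -0.88 without hemoglobin and -0.87 with centring, and was then not called. The value in Ortho against Pro was 0.93 without Pro replicate 1, 0.81 without Pro replicate 3, 0.94 without Ortho replicate 3 and 0.67 with all libraries at the same sum, each short of a call. Exons of Slc6a9 overlap those of B4galt2 and Ccdc24 on the opposite strand, and whether the fragments were counted by strand is not given in the sources used here.

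Slc1a5, on chromosome 7 from 16781340 to 16798274, was higher from Baso on. It had 85.2, 101 and 83.8 in Pro, then 232, 206 and 209 (Baso), 224, 222 and 225 (Poly) and 214, 197 and 225 (Ortho). The Pro libraries lay below all 9 others, which overlapped each other. Its log2 fold change was 1.26 (SE 0.086) in Baso against Pro and 1.23 in Ortho against Pro (limma, adjusted p = 1.66e-06 and 1.71e-07), and the second value was 0.86 and not called with all libraries at the same sum.

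Some other carriers of large neutral or aromatic amino acids had an adjusted p under 0.05 in Baso against Pro with less than the fold required for a call. Slc7a5, the light chain of the LAT1 exchanger, averaged 67.8 ± 1.89 in Pro, followed by 110.1 ± 11.8 for Baso, 116 ± 0.525 for Poly and 90.4 ± 2.57 for Ortho, differing by 0.69 (log2) in Baso against Pro (limma, adjusted p = 1.87e-05). Its heavy chain Slc3a2 averaged 66.7 ± 2.69, 96.4 ± 11.1, 98.2 ± 11.03 and 96.6 ± 5.37 in the same order, with 0.52 in Baso against Pro. Slc43a1, which encodes LAT3, a facilitated carrier of leucine and other branched-chain amino acids, went from 101 ± 15.9 in Pro to 179.6 ± 10.3 in Baso. Slc16a10, a carrier of aromatic amino acids, averaged 63.1 ± 7.79, 97.9 ± 5.27, 101 ± 3.0 and 84.9 ± 1.68 from Pro to Ortho. The log2 fold change of Slc43a1 in Baso against Pro was 0.83, and it passed the threshold of a call (1.14 and 1.13) when hemoglobin was left out of the scaling or the libraries were centred.

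Slc38a5, a sodium-coupled transporter of glutamine, asparagine and histidine on chromosome X from 8271133 to 8280179, had 97.8, 102 and 99.3 in Pro, then 97.8, 106 and 103 (Baso), 76.2, 80.7 and 82.6 (Poly) and 21.96, 28.3 and 25.8 (Ortho). Pro and Baso overlapped, the Poly libraries lay below both, and the Ortho libraries lay below all others. In Ortho against Poly the log2 fold change was -1.62 (SE 0.085; limma, adjusted p = 9.28e-08). Slc6a20a, a carrier of proline and other imino acids, averaged 22.2 ± 3.94, 30.3 ± 5.002 and 27.04 ± 0.747 in Pro, Baso and Poly and 4.904 ± 0.6303 in Ortho. Its log2 fold change of -2.25 (SE 0.14) in Ortho against Poly was the lowest of the 184 genes at that step. Slc6a20a shares exonic sequence with Ccr9 and 2 non-coding genes on the opposite strand. Slc7a1, the CAT1 carrier of arginine, lysine and ornithine, had 16.7, 16.7 and 18.8 FPKM in Poly and 6.503, 6.09 and 6.38 in Ortho, against 24.1 ± 1.34 in Pro, with a log2 fold change of -1.33 at the last step. The Ortho libraries of Slc1a5, Slc43a1 and Slc7a5 lay above those of Pro, and the Ortho libraries of Slc38a5 and Slc7a1 below them. Slc7a4, of the same family as Slc7a1 and Slc7a5, was 3.601 ± 1.09 in Pro, 0.567 ± 0.249 in Baso and 0.568 ± 0.0667 in Ortho (-1.54 and -1.53), and its exons overlap those of P2rx6 on the opposite strand.

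**Figure D2:**
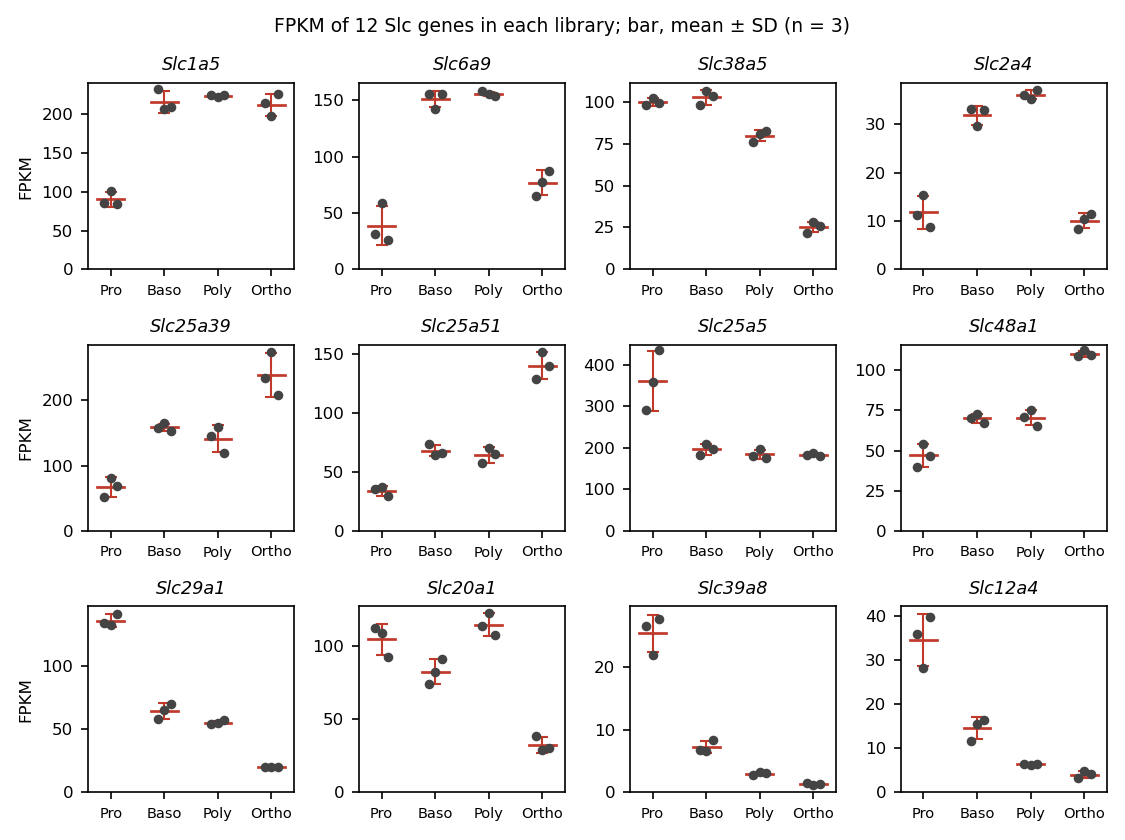
FPKM (y axis) of 12 Slc genes in each library by stage (x axis). Grey points are the libraries and red bars the mean ± SD of 3, so that Slc6a9 and Slc2a4 are seen high in Baso and Poly only, Slc25a39, Slc25a51 and Slc48a1 highest in Ortho, and Slc29a1, Slc39a8 and Slc12a4 highest in Pro.

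Carriers of sugars and monocarboxylates numbered 19, with 1 called higher and 1 lower in Baso than in Pro, 1 lower in Ortho than in Poly, and 1 higher and 2 lower in Ortho than in Pro (5 and 2 without hemoglobin or with centring, 0 and 3 with the same sum). Shares of all genes tested, as deposited, were 1.82% and 8.54%, 4.81%, and 6.33% and 23.8% in the same order. The class median in Ortho against Pro was 0.14, and it was -0.22 with all libraries at the same sum. Slc2a4 encodes GLUT4, the glucose transporter known from insulin-responsive muscle and fat, and lies on chromosome 11 from 69942539 to 69948188. It had 11.2, 15.4 and 8.79 in Pro, followed by 33.2, 29.6 and 32.9 for Baso, 36.1, 35.2 and 37.1 for Poly and 8.4, 10.3 and 11.5 for Ortho. Baso and Poly libraries lay above all Pro and Ortho libraries, which overlapped each other. The log2 fold change was 1.39 (SE 0.16) in Baso against Pro and -1.76 in Ortho against Poly (limma, adjusted p = 2.78e-05 and 6.33e-06), and -0.19 in Ortho against Pro (adjusted p = 0.309).

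The other glucose carriers differed from Slc2a4 in level and course. Slc2a1, which encodes the widely expressed GLUT1, averaged 2.704 ± 0.624 in Pro and 4.81 ± 1.55 in Ortho, and Slc2a3, which encodes GLUT3, 18.05 ± 0.4802 and 19.98 ± 3.26, and neither was called in any comparison. Slc2a6 was 4.61, 4.82 and 4.26 in Pro and 12.3, 9.25 and 10.3 in Ortho, without overlap, with 1.06 on the log2 scale (limma, adjusted p = 0.000121) that was 0.96 without Ortho replicate 1 and then not called. Slc2a8, an intracellular relative, went the other way, from 8.66, 9.84 and 10.9 in Pro to 1.99, 2.102 and 1.98 in Ortho (-1.83, adjusted p = 1.57e-07). The lactate carrier Slc16a1 was the most abundant gene of the class, with 86.9 ± 8.31, 116 ± 2.99, 111 ± 2.55 and 95.9 ± 5.06 from Pro to Ortho, and its libraries overlapped between Pro and Ortho. Slc16a3, a carrier that serves lactate export, was 12.1, 12.1 and 12.9 in Pro and 32.4, 17.9 and 22.6 in Ortho (0.88, limma adjusted p = 0.00336), short of a call. Slc45a4 was lower in Ortho (6.35 ± 1.57) than in Pro (23.6 ± 3.97; -1.75).

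Mitochondrial carriers, with 37 genes the most numerous class, had their highest summed FPKM in Pro, a direction that turned outside hemoglobin. In Ortho against Pro, 2 were called higher and 7 lower (6.33% and 23.8% of all genes). By the adjusted p alone, 24 of the 37 were lower and 4 higher (53.2% and 22.7% of all genes). The class median was -0.47 (all genes, -0.42). The median stayed below 0 under each scaling, at -0.80 with the same sum, -0.13 without hemoglobin and -0.08 with centring, whereas the calls were 4 higher and 1 lower without hemoglobin, 4 and 2 with centring, and 2 and 15 with the same sum. The summed FPKM of the class was 1124 ± 93.7 in Pro, then 842 ± 26.2 (Baso), 799.7 ± 36.2 (Poly) and 913 ± 39.4 (Ortho), with Pro libraries above all others. As a percentage of the FPKM outside hemoglobin genes, a scale added after the data were seen, it was 0.237 ± 0.0147% in Pro and 0.271 ± 0.0183% in Ortho, with all Ortho libraries above the Pro libraries. The 2 genes called higher, Slc25a39 and Slc25a51, averaged 239 and 140 FPKM in Ortho and so held much of its sum. The class sum without them was not counted, so its turn cannot be read as one of most mitochondrial carriers.

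Slc25a51 encodes the mitochondrial NAD+ carrier and lies on chromosome 4 from 45395923 to 45408766. The libraries held 35.6, 37.1 and 29.3 in Pro, followed by 73.3, 64.6 and 66.3 for Baso, 57.5, 70.3 and 65.4 for Poly and 128, 152 and 139.9 for Ortho. The Pro libraries were lowest, the Ortho libraries highest, and Baso and Poly overlapped. It was the only Slc gene called higher in Ortho than in Poly, with a log2 fold change of 1.11 (SE 0.11; limma, adjusted p = 1e-05), and this value was 0.92 and not called with all libraries at the same sum. In Ortho against Pro it was 2.02 (adjusted p = 2.93e-08).

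Slc25a39, on chromosome 11 from 102402985 to 102407946, had 51.7, 80.8 and 68.97 in Pro, then 157, 165 and 153 (Baso), 145, 159 and 119 (Poly) and 234, 274 and 208 (Ortho). The Pro libraries lay below and the Ortho libraries above all others. The log2 fold change was 1.25 (SE 0.16) in Baso against Pro and 1.83 in Ortho against Pro (limma, adjusted p = 5.54e-05 and 1e-06), and 0.76 in Ortho against Poly (adjusted p = 0.00364), short of a call.

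Slc25a3 and Slc25a5, which bring phosphate and ADP to the mitochondrial ATP synthase, were highest in Pro. Slc25a3 had 293, 259 and 276 in Pro, followed by 118, 134 and 131 for Baso, 129.9, 121 and 114 for Poly and 103, 107 and 102 for Ortho, with a log2 fold change of -1.11 in Baso against Pro and -1.4 in Ortho against Pro, both called by limma (adjusted p of 1.65e-06 and 3.01e-08). Without hemoglobin the values of Slc25a3 were -0.79 and -0.91, neither called, and with centring the first was -0.81 and not called. Slc25a5 had 291, 358 and 436 in Pro and 183, 188 and 181 in Ortho, with -0.95 (SE 0.12), just short of a call, and -1.10 and called without Pro replicate 1. Slc25a4, the isoform of heart and muscle, averaged 19.8 ± 1.59 in Pro and 20.9 ± 0.874 in Ortho, with 0.08 (adjusted p = 0.422). The sequences of Slc25a4 and Slc25a5 are close, and fragments shared between them make the value of each uncertain. Slc25a1, the citrate exporter, was lower at the first step (26.1 ± 4.21 to 10.9 ± 0.557; -1.18), as was Slc25a12, an aspartate and glutamate exchanger (26.9 ± 0.641 to 13.4 ± 6.62; -1.05), whose value was -0.84 without Baso replicate 1 and -0.90 without Baso replicate 2 and then not called. Baso replicate 3 stood apart for Slc25a12, with 9.16, 10.01 and 21.02 in the replicates 1 to 3. In Ortho against Pro Slc25a12 had -1.07, and -0.73 and no call without Ortho replicate 2.

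Slc25a21, a carrier of oxoadipate and related dicarboxylates, had its highest values in Pro, with 25.05, 31.8 and 35.2 in Pro, then 21.8, 24.3 and 25.8 (Baso), 11.95, 12.1 and 13.8 (Poly) and 5.72, 6.57 and 5.96 (Ortho). The libraries of Baso, Poly and Ortho did not overlap. Its log2 fold change of -2.15 (SE 0.12) in Ortho against Pro was the lowest of the class, and its exons overlap those of Pax9 on the opposite strand. Slc25a16, Slc25a32 and Slc25a42, of which the last carries coenzyme A, were also lower in Ortho, with -1.05, -1.13 and -1.11, and none of the 3 was called when hemoglobin was left out or the libraries were centred. Slc25a16 was also not called without Pro replicate 2 (-0.99). The iron importer Slc25a28 averaged 19.4 ± 1.83 in Pro and 15.4 ± 2.09 in Ortho (-0.32, limma adjusted p = 0.0192).

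Of the 4 carriers of nucleosides and nucleobases, 2 were called lower in Ortho than in Pro (23.8% of all genes) and none higher (6.33%). By the adjusted p of limma alone, 2 were higher and 2 lower (22.7% and 53.2% of all genes). At an unadjusted p under 0.05, 2 were also higher and 2 lower, and the share of all genes was not counted there. Without hemoglobin or with centring the calls turned to 2 higher and 1 lower. Slc29a1 encodes ENT1, the equilibrative transporter for nucleosides, and lies on chromosome 17 from 45585200 to 45599606. It had 134, 132 and 141 in Pro, followed by 58.1, 65.5 and 70.3 for Baso, 54.1, 54.7 and 57.03 for Poly and 20.1, 20.1 and 19.97 for Ortho. The 4 stages did not overlap, and the Ortho libraries had an SD of 0.0776. The log2 fold change was -1.06 (SE 0.073) in Baso against Pro, -1.42 in Ortho against Poly and -2.7 in Ortho against Pro (limma, adjusted p = 1.66e-06, 8.46e-08 and 1.16e-09). The value of the first step was -0.99 without Baso replicate 1, -0.75 without hemoglobin and -0.77 with centring, each short of a call. Slc43a3, a carrier of purine nucleobases, was 133 ± 20.5 in Pro, then 154 ± 10.3 (Baso), 132 ± 1.74 (Poly) and 62.1 ± 3.08 (Ortho), with -1.07 (SE 0.10) at the last step. It had no called change before Ortho, and its call against Pro was lost without Pro replicate 2 (-0.98) and its calls against Pro and Poly with hemoglobin left out (-0.58 and -0.93). The summed FPKM of the 4 genes was 280.3 ± 23.3 in Pro and 104 ± 4.93 in Ortho.

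Among 15 carriers of vitamins, heme, choline and lipids, 2 were called lower in Baso than in Pro (8.54% of all genes). In Ortho, 1 was higher and 3 lower than in Pro (6.33% and 23.8% of all genes). The last counts were 5 and 2 without hemoglobin or with centring, and 0 and 3 with the same sum. Slc48a1 encodes HRG1, which moves heme out of endosomes and lysosomes, and lies on chromosome 15 from 97778520 to 97792692. It had 39.9, 54.2 and 46.9 in Pro, followed by 70.5, 72.7 and 66.9 for Baso, 70.7, 75.1 and 65.5 for Poly and 109, 112 and 109 for Ortho. The Ortho libraries lay above and the Pro libraries below all others, and Baso and Poly overlapped. In Ortho against Pro the log2 fold change was 1.22 (SE 0.098; limma, adjusted p = 5.14e-07), and 0.86 and not called with all libraries at the same sum. Its exons overlap those of Hdac7 on the opposite strand.

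The folate carrier Slc19a1 had 16.9, 10.9 and 17.8 in Pro, 5.35, 4.89 and 4.81 in Baso and 4.79, 5.11 and 4.46 in Ortho, and the thiamine carrier Slc19a2 averaged 5.24 ± 1.37 in Pro and 2.09 ± 0.571 in Ortho. Their log2 fold changes in Ortho against Pro were -1.46 and -1.01, and that of Slc19a2 was -0.85 without Pro replicate 2 and -0.87 without Ortho replicate 3, both short of a call. Slc46a3, a lysosomal member of the family of the proton-coupled folate transporter, had 26.4, 27.98 and 28.96 in Pro, then 8.74, 9.33 and 11.1 (Baso), 6.8, 6.43 and 4.28 (Poly) and 4.1, 2.62 and 3.84 (Ortho), with -1.43 at the first step and -2.68 in Ortho against Pro (limma, adjusted p = 7.12e-08). All 3 stages after Pro lay below it. Slc44a1, a choline transporter, averaged 11 ± 0.363 in Pro and 8.07 ± 0.365 in Ortho (-0.4) and Slc44a2, of the same family, 23.02 ± 3.65 and 42.8 ± 3.13 (0.87, limma adjusted p = 2.1e-05), neither past the fold of a call.

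Carriers of zinc, copper, manganese and magnesium numbered 23. In Ortho against Pro, 1 was called higher and 5 lower (6.33% and 23.8% of all genes). The class median was -0.12, and it was 0.33 without hemoglobin and 0.28 with centring. The counts were 5 higher and 2 lower under both of these scalings, and 0 and 7 with the same sum. Slc39a8, which encodes ZIP8, an importer of zinc and manganese, had the largest decrease of all 184 genes. It lies on chromosome 3 from 135825279 to 135888572 and had 26.4, 21.9 and 27.6 in Pro, followed by 6.68, 6.54 and 8.297 for Baso, 2.71, 3.23 and 3.02 for Poly and 1.58, 1.18 and 1.34 for Ortho. No library of one stage overlapped another stage, and the mean in Pro was 18.5 times that in Ortho. The log2 fold change was -1.69 (SE 0.12) in Baso against Pro, -1.03 in Poly against Baso and -3.47 in Ortho against Pro (limma, adjusted p = 1.95e-06, 0.000795 and 2.24e-09). The middle value was -0.94 without Baso replicate 3 and -0.98 without Poly replicate 1, and was then not called.

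Slc30a10, a manganese exporter, had lower values at each stage, with 6.32, 8.87 and 7.26 in Pro, then 4.81, 6.27 and 6.23 (Baso), 1.87, 2.65 and 1.96 (Poly) and 0.804, 0.97 and 0.973 (Ortho). The 4 stages did not overlap, and the log2 fold change was -1.1 in Poly against Baso and -2.14 in Ortho against Pro (limma, adjusted p = 0.00148 and 1.25e-07). Slc41a3, of a magnesium transporter family, averaged 32.5 ± 7.46 in Pro and 13.8 ± 2.23 in Baso (-1.17), and fell short of a call at -0.99 without Pro replicate 3. The copper importer Slc31a1 averaged 15.02 ± 0.911 in Pro and 6.84 ± 0.142 in Ortho (-1.03), and lost its call without Pro replicate 2 (-0.98), without hemoglobin (-0.58) and with centring (-0.63). Slc39a7, which releases zinc from the endoplasmic reticulum, averaged 35.7 ± 4.47 and 16.2 ± 3.39 (-1.11), and lost its call without Ortho replicate 2 (-0.93), without hemoglobin (-0.64) and with centring (-0.71).

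Slc30a1 and Slc30a9 had higher values after Pro. Slc30a1, the zinc exporter of the plasma membrane, averaged 6.38 ± 1.11 in Pro and 11.7 ± 0.851 in Ortho (0.79, limma adjusted p = 0.00015). The zinc importers Slc39a10 and Slc39a14 had 0.12 and 0.45 in Ortho against Pro, and the magnesium transporter Slc41a1 0.31, none called. Slc30a9, the most abundant gene of the class, averaged 26.9 ± 2.12 in Pro and 52.3 ± 3.67 in Baso (0.93, adjusted p = 3.65e-06), without overlap and just short of a call. Slc11a1 encodes NRAMP1, a metal transporter of the phagosomes of macrophages and neutrophils, and was the 1 gene of the class called higher in Ortho. It had 5.47, 4.21 and 4.196 in Pro, followed by 6.61, 5.79 and 7.28 for Baso, 10.4, 9.46 and 10.4 for Poly and 13.1, 10.6 and 12.3 for Ortho, with 1.21 (SE 0.12; limma, adjusted p = 2.18e-06), and 0.89 and no call with all libraries at the same sum. The summed neutrophil and macrophage markers given above also had no overlap between Pro and Ortho and were higher in Ortho, and their part in the values of Slc11a1, and of Slc2a6 and Slc15a3, was not tested. Of the markers of these lists that passed the filter, Prtn3 and Vcam1 overlapped between Pro and Ortho and the others did not. Vcam1 had 2.33, 3.52 and 3.23 in Pro and 2.92, 2.06 and 1.78 in Ortho.

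Carriers of protons, alkali ions, chloride, phosphate and sulfate numbered 21. None was called higher in Ortho than in Pro (6.33% of all genes) and 3 were called lower (23.8%). By the adjusted p of limma alone, 7 were higher and 8 lower (22.7% and 53.2% of all genes). At an unadjusted p under 0.05, 9 were higher and 8 lower, and the share of all genes was not counted there. The class median was 0.09 (-0.22 with the same sum). The calls were 2 higher and 3 lower without hemoglobin or with centring, and 0 and 5 with the same sum. Potassium-chloride cotransporters lower cell volume by letting both ions out. Slc12a4, the member KCC1, lies on chromosome 8 from 105943590 to 105966097 and had 35.7, 28.1 and 39.6 in Pro, then 11.7, 15.5 and 16.4 (Baso), 6.36, 6.29 and 6.49 (Poly) and 3.198, 4.78 and 4.13 (Ortho). No stage overlapped the next, and the log2 fold change was -1.19 (SE 0.16) in Baso against Pro, -1.06 in Poly against Baso and -2.81 in Ortho against Pro (limma, adjusted p = 6.96e-05, 0.00294 and 3.61e-08). The value in Poly against Baso was -0.97 and not called without Baso replicate 3, and that in Baso against Pro was -0.89 and not called without hemoglobin or with centring.

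Slc12a7, the member KCC4, and Slc12a2, the sodium-potassium-chloride cotransporter NKCC1, had means of 1.296 ± 0.231 and 1.77 ± 0.531 in Pro and 1.94 ± 0.311 and 0.697 ± 0.0857 in Ortho.

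Among the phosphate importers, Slc20a1, which encodes PiT1 and lies on chromosome 2 from 129198764 to 129211616, was called lower at the last step. It had 112, 109.5 and 92.97 in Pro, followed by 74.1, 82.7 and 91.7 for Baso, 114, 123 and 108 for Poly and 38.6, 28.8 and 30.4 for Ortho. Ortho libraries lay below all others, with a log2 fold change of -1.8 (SE 0.12) in Ortho against Poly (limma, adjusted p = 5.14e-07). Its relative Slc20a2 averaged 8.52 ± 0.764 in Poly and 3.96 ± 0.927 in Ortho, with -0.95 (adjusted p = 0.000109), just short of a call. The sulfate carrier Slc26a1 was lower at the first step, from 4.88, 7.66 and 10.3 in Pro to 1.14, 1.64 and 1.38 in Baso and 0.297, 0.597 and 0.594 in Ortho (-1.81 and -2.48), and its exons overlap those of Idua on the opposite strand. The anion exchanger Slc4a2 averaged 15.1 ± 2.25 in Pro and 14.5 ± 1.07 in Ortho (-0.05, adjusted p = 0.721).

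Of 22 carriers of nucleotide sugars and their relatives, 3 were called lower in Ortho than in Pro (23.8% of all genes) and none higher (6.33%). By the adjusted p of limma alone, 6 were higher and 8 lower (22.7% and 53.2% of all genes). At an unadjusted p under 0.05, 6 were also higher and 8 lower, and the share of all genes was not counted there. The calls were 0 higher and 1 lower without hemoglobin, 1 and 1 with centring, and 0 and 6 with the same sum. Slc35g1 had 10.1, 10.5 and 12.7 in Pro, 2.55, 2.7 and 3.16 in Baso and 1.39, 2.08 and 1.46 in Ortho (-1.67 and -2.2). Slc35e2 averaged 7.85 ± 0.544 in Pro and 2.94 ± 0.567 in Ortho (-1.17), and Slc35d1, which carries UDP-glucuronic acid, 5.25 ± 0.565 and 1.87 ± 0.109 (-1.12). The calls of the last 2 were lost when hemoglobin was left out. Slc35c2, the most abundant of the class over the 12 libraries, averaged 21.8 ± 1.76 in Pro and 31.3 ± 2.17 in Ortho (0.51).

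The 13 carriers of organic ions, peptides and urea had the highest class median in Ortho against Pro, 0.55, and it stayed above 0 under each scaling (0.23, 0.98 and 0.95 with the same sum, without hemoglobin and with centring). Of them, 2 were called higher and 1 lower, against 6.33% and 23.8% of all genes. These counts were 6 and 0 without hemoglobin or with centring, and 2 and 1 with the same sum. By the adjusted p alone, 9 were higher and 1 lower (22.7% and 53.2% of all genes). Slc14a1, the urea transporter of red cells that carries the Kidd antigens in humans, had 55.2, 60.2 and 58.7 in Pro, then 71, 70.7 and 76.2 (Baso), 54.9, 58.6 and 56.9 (Poly) and 19.2, 22.1 and 24.9 (Ortho). At the last step it was lower, with -1.33 (SE 0.087; limma, adjusted p = 4.4e-07). Slc22a4, the ergothioneine carrier OCTN1, averaged 22.3 ± 4.08 in Pro and 41.9 ± 2.89 in Ortho (0.89, adjusted p = 5.38e-05), short of a call. Its neighbour in the family Slc22a21 had 0.409, 0.678 and 0.6796 in Pro and 2.86, 3.13 and 2.61 in Ortho (1.29, adjusted p = 0.000526), and fragments shared among these relatives make its low value uncertain.

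Slc15a2, the PEPT2 carrier of di- and tripeptides, varied by library as well as by stage. It lies on chromosome 16 from 36750177 to 36784962 and had 4.56, 3.602 and 1.29 in the replicates 1 to 3 of Pro, 8.78, 4.29 and 2.44 in Baso, 9.101, 5.61 and 1.93 in Poly and 25.7, 14.2 and 8.91 in Ortho. In each stage replicate 1 was highest and replicate 3 lowest, and Ortho overlapped Poly but not Pro or Baso. In Ortho against Pro the fitted log2 fold change was 2.03 (SE 0.53; limma, adjusted p = 0.00447), with the widest standard error of the 39 genes called there. In Ortho against Poly it was 1.45 (adjusted p = 0.0682) and not called. When replicate numbers were blocked and Pro was left out, the same value was called (adjusted p = 9.36e-05). Leaving out Poly replicate 1 or Ortho replicate 3 gave 1.85 and 1.80, both called. The lysosomal histidine and peptide carrier Slc15a3 averaged 3.75 ± 1.48 in Pro and 8.25 ± 1.28 in Ortho (0.995, adjusted p = 0.00086), just under the fold of a call.

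**Figure D3:**
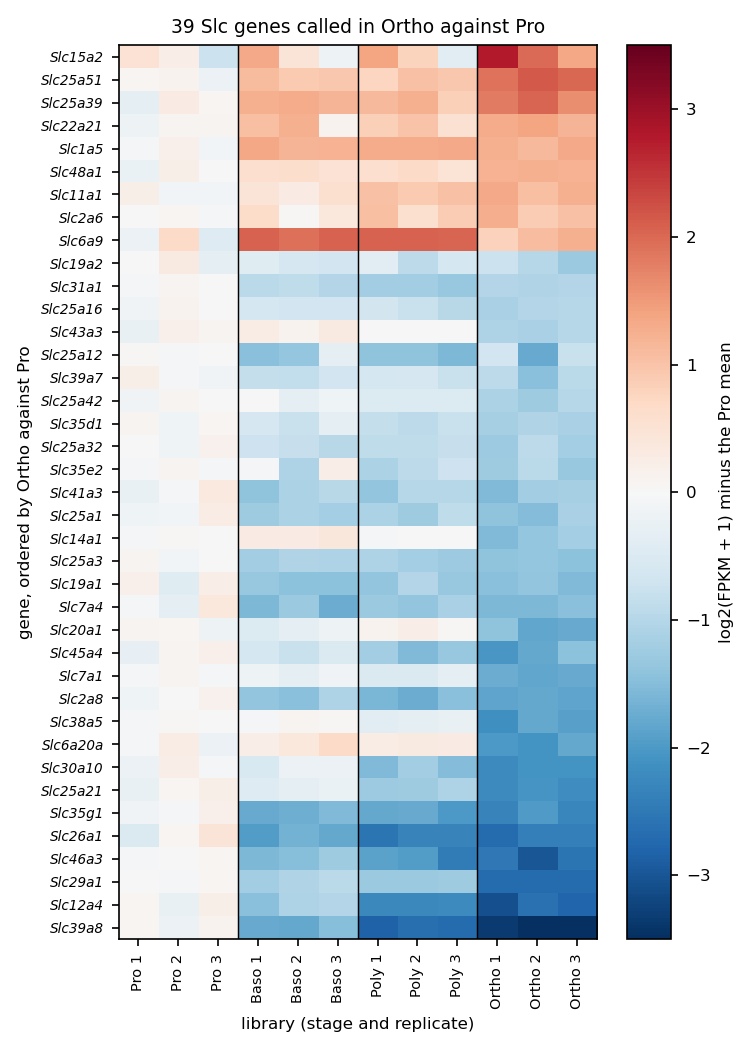
The 39 Slc genes called between Ortho and Pro (rows, ordered by log2 fold change) in the 12 libraries (columns), as log2(FPKM + 1) minus the mean of the 3 Pro libraries. Red is above and blue below the Pro mean, the 9 genes called higher are at the top, and the largest decreases, those of Slc39a8, Slc12a4 and Slc29a1, are at the bottom.

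The decreases of the first and the last step, 2 comparisons that share no library, had 1 Slc gene in common. Of the 13 Slc genes called lower in Baso than in Pro and the 9 called lower in Ortho than in Poly, this was Slc29a1, which is 7.69% of the first list and 11.1% of the second. The first of its values was -0.75 without hemoglobin and -0.77 with centring, neither called. Over all genes tested, 12 were in both lists, 1.08% of 1110 and 1.92% of 625. The 13 early genes were Slc26a1, Slc39a8, Slc35g1, Slc7a4, Slc46a3, Slc19a1, Slc2a8, Slc12a4, Slc25a1, Slc41a3, Slc25a3, Slc29a1 and Slc25a12. The 9 late genes were Slc6a20a, Slc20a1, Slc2a4, Slc38a5, Slc29a1, Slc14a1, Slc7a1, Slc43a3 and Slc6a9.

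A transient course, higher in Baso than in Pro and then lower in Ortho than in Poly, was seen in 2 Slc genes, Slc6a9 and Slc2a4, out of 4 called higher at the first step (50%) and 9 called lower at the last (22.2%). Over all genes it was 37, which is 15.6% of 237 and 5.92% of 625. The last-step call of Slc6a9 was lost without Ortho replicate 1 (-0.91), with a pseudocount of 5 (-0.98), without hemoglobin (-0.88) and with centring (-0.87), whereas both calls of Slc2a4 were kept under these settings. No Slc gene was called higher at both steps, of 4 and 1 called there, and of all genes 54 were, 22.8% of 237 and 39.4% of 137. Slc25a39 and Slc25a51 each passed at one step and had less than the fold of a call at the other (0.99 for Slc25a51 at the first step and 0.76 for Slc25a39 at the last). Across the 184 genes the log2 fold changes of the steps had a Pearson correlation of 0.09, and across all genes of 0.07, given as a description because genes are not independent replicates.

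**Figure D4:**
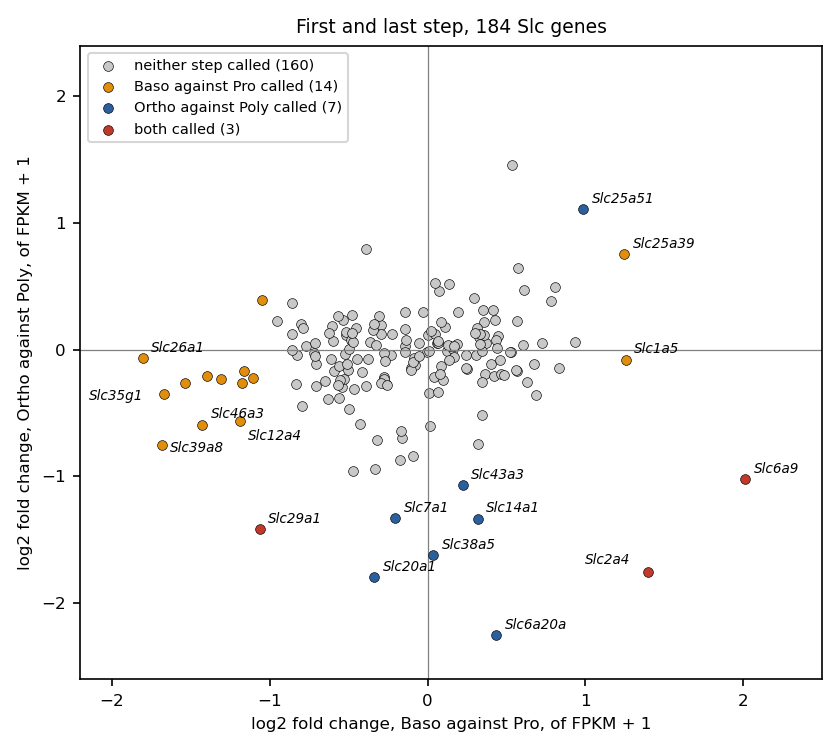
Log2 fold change of FPKM + 1 in Baso against Pro (x axis) and in Ortho against Poly (y axis) for the 184 Slc genes. Orange points were called at the first step only (14), blue points at the last only (7) and red points at both (3, Slc29a1, Slc6a9 and Slc2a4).

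Promoter sequences were looked at for called genes of different courses. RefSeq promoters on GRCm38.p6, which has the coordinates of mm10, were found for 143 of the 184 Slc genes, 198 promoters in all. The 250 bases before each start were searched on both strands for AGATAA or TGATAA, letters bound by GATA factors. Strings ending in G, which GATA factors also bind, were not searched, so a GATA motif here means AGATAA or TGATAA only. The search also took CACCC, which KLF1 binds as part of a longer site. These motifs do not overlap each other. A GATA motif was in 13.6% of the Slc promoters and 16.6% of all 32851 promoters, and CACCC in 66.2% and 52.0%. For 24 of the genes called lower in Ortho than in Pro (37 promoters) the shares were 13.5% and 75.7%, and for 5 of the genes called higher (7 promoters) 14.3% and 85.7%. Matches are capitals below, on either strand, and each window lies outside the gene as GENCODE M21 gives it. Slc39a8 and Slc12a4 are shown as genes that were lower at the first 2 steps, Slc29a1 as lower at the first and last, Slc7a1 as lower at the last, and Slc15a2 as higher in Ortho. A match is a description and not a site of binding. The 32851 promoters include those of genes that did not pass the filter, and each start of a gene counts as its own promoter. Shares for the promoters of the genes tested were not counted, so the difference in CACCC is no result about Slc genes.
Slc39a8: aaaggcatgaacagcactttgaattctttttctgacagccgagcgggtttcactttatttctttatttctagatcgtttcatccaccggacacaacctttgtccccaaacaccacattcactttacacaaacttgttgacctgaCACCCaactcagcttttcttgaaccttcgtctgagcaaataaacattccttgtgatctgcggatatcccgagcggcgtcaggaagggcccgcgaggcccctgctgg
Slc12a4: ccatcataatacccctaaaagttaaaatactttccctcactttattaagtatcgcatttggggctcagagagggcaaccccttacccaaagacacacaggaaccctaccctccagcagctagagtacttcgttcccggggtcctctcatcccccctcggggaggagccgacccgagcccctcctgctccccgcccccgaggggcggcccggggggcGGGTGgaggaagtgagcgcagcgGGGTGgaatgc
Slc29a1: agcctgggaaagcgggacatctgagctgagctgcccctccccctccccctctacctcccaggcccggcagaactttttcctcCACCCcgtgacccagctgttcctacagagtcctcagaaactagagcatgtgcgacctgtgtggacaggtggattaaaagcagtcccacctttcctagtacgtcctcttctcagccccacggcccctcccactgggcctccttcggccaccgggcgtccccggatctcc
Slc7a1: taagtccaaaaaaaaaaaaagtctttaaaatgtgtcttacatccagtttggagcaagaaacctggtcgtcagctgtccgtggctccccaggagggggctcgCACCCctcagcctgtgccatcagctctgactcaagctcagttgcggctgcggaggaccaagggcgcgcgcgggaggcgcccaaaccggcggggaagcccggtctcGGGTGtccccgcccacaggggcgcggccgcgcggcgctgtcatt
Slc15a2: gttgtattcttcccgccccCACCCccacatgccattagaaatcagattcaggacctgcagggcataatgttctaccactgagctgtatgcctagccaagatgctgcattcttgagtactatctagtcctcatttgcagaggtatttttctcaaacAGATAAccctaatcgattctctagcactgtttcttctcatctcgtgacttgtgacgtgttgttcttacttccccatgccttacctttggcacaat
These windows are chr3:135825029-135825278 (plus strand) for Slc39a8, chr8:105966116-105966365 (minus strand) for Slc12a4, chr17:45599619-45599868 (minus strand) for Slc29a1, chr5:148399905-148400154 (minus strand) for Slc7a1 and chr16:36784963-36785212 (minus strand) for Slc15a2. Of the 5 windows, 1, that of Slc15a2, held a GATA motif, and each held at least 1 CACCC, with 2 in Slc12a4 and 2 in Slc7a1.

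The class sums bring the gene results together. Besides the classes given above, the summed FPKM from Pro to Ortho went from 256 ± 3.99 to 193 ± 7.55 for metal carriers, from 258 ± 7.36 to 156 ± 9.34 for proton, alkali ion and anion carriers, from 239.6 ± 3.92 to 189.9 ± 3.24 for nucleotide sugar carriers and from 159 ± 10.6 to 211 ± 3.25 for carriers of vitamins, heme and lipids (SD, n = 3). In each of these 4 classes the Pro and Ortho libraries did not overlap, and only the last was higher in Ortho. Within that class Slc48a1 alone made up 29.6% of the sum in Pro and 52.3% in Ortho. Its class median of the log2 fold change in Ortho against Pro was -0.07, so the higher sum does not describe most of its genes. As a percentage of the FPKM outside hemoglobin, the nucleotide sugar class turned to higher in Ortho (0.0505 ± 0.00195% in Pro, 0.0563 ± 0.000602% in Ortho, without overlap), and the metal class, at 0.0541 ± 0.00187% and 0.0574 ± 0.00225%, had overlapping libraries. The ion class kept its direction, at 0.0544 ± 0.00274% and 0.0462 ± 0.00157%. Sugar and monocarboxylate carriers summed to 244 ± 11.6 in Pro and 238 ± 9.71 in Ortho, with libraries that overlapped, and to 289 ± 8.19 in Poly. Outside hemoglobin their sum was 0.0515 ± 0.00334% in Pro and 0.0705 ± 0.00114% in Ortho, without overlap.

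**Figure D5:**
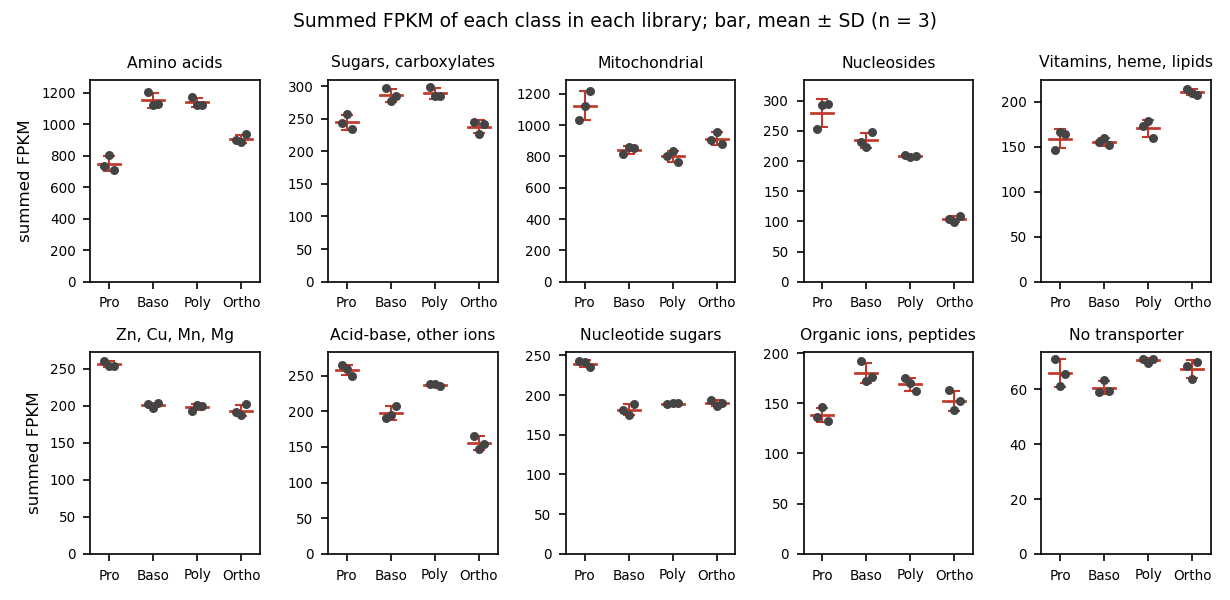
Summed FPKM (y axis, from 0) of each substrate class in each library by stage (x axis). Points are the libraries and red bars the mean ± SD of 3, and the amino acid class is highest in Baso and Poly, the mitochondrial class highest in Pro and the nucleoside class lowest in Ortho.

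Transport genes outside the Slc symbols were counted in the same fit. Of 18 tested genes of the solute carrier superfamily that have other symbols, none was called higher in Ortho than in Pro (6.33% of all genes tested). Called lower were 2 (23.8% of all genes tested), Mtch2 (-1.11) and Sfxn1 (-1.59), a mitochondrial serine carrier. The adjusted p of limma alone gave 7 higher and 8 lower (22.7% and 53.2% of all genes tested). The median log2 fold change of the 18 genes was -0.21. Of 35 other membrane transporters and channels, 3 were called higher (6.33% of all genes tested) and 11 lower (23.8% of all genes tested), with a median of -0.61 (-0.42 for all genes). The higher genes were Abcc3, Aqp9 and Atp1b1, and the lower ones included the water channel Aqp1, the sodium pump subunit Atp1b2, the mechanosensitive channel Piezo1 and the 3 porins of the outer mitochondrial membrane, Vdac1, Vdac2 and Vdac3. Exons of 60 of the 184 Slc genes overlap exons of another annotated gene, 52 of them on the opposite strand, so their values may hold fragments of the partner.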

How the data were processed

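The deposited table holds 1 FPKM value for each gene and library, for 4 stages with 3 libraries each. Per the labels and the study's methods, the authors checked reads with FastQC, trimmed them with Cutadapt and Trimmomatic, aligned with HISAT2 to mm10, and used SAMtools and, for counting, featureCounts. The tool that made the FPKM, the annotation release, the strand setting and all versions are not given in the sources used here. The study tested counts with DESeq2, which FPKM do not allow. Here log2(FPKM + 1) of the 12994 genes that reached an FPKM of 1 in 3 or more libraries was fitted with limma 3.58.1 (R 4.3.3), all 4 stages in 1 model with a variance trend, and p-values were adjusted over all genes. Of 29839 lines, 1 repeated an identifier, which left 29838 genes. On simulated data for Ortho against Pro (12994 genes, 200 changed), the fit recovered 96% of genes changed by 1.5 and 100% of those changed by 2 on the log2 scale, and called 2 unchanged genes. The simulated libraries shared the same scale and gene means apart from these changes, so the result does not bear on how the real libraries are scaled. Exact permutation of 3 against 3 libraries cannot give a p below 0.1.

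Members, classes and lists were chosen with earlier results of these data known, and some classes were assigned after the files were read. Genes were named when they were on a list of 40 carriers of erythroid interest (37 were members; Slc1a4, Slc46a1 and Slc7a11 were below the filter), when they had the highest mean of their class, or when they were among the up to 2 highest and 2 lowest called genes of a class in Ortho against Pro with a stage mean of at least 5. Slc2a4, Slc43a1, Slc7a4, Slc15a3, Slc16a10, Slc19a2, Slc22a21, Slc25a1, Slc25a12, Slc25a16, Slc25a32, Slc25a42, Slc35d1, Slc39a7, Slc41a3 and Slc44a2, and genes named in counts only, were chosen after their values were seen.

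The labels give the same replicate numbers in every stage, without saying what they mark. Correlations of same-numbered libraries' deviations from the stage means were 0.156 to 0.319 between Baso, Poly and Ortho. Between Pro and the others they were 0.00524 to 0.0968. The fit behind the reported calls had no replicate block, so its stages were not paired. From these correlations alone, the 3 later stages were blocked by replicate number in an alternative fit without Pro. Another alternative fit blocked all stages, Pro included. Positions are from GENCODE M21. Figures were drawn with matplotlib 3.10.9. The values of a few genes are not reported here.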

Additional observations from a re-analysis of the deposited data

How the results depend on the processing

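For 79 values of named genes, 1740 alternatives were computed, of which 1630 kept their direction and side of the thresholds, 94 were no longer past them, 16 came to pass them and 0 reversed. The 79 include values that were not called as reported. Of the called values, 38 had some alternative that was not past the thresholds. The counts that moved by more than 1.5 times were these. With a pseudocount of 0.1, 7 Slc genes were higher in Baso than in Pro (4 as reported), 1 higher in Poly than in Baso (0), 15 lower in Ortho than in Poly (9) and 23 higher in Ortho than in Pro (9). With a pseudocount of 5, 6 were lower in Baso than in Pro (13), 0 lower in Poly than in Baso (3) and 5 higher in Ortho than in Pro (9). With all libraries at the same sum, 0 were higher in Ortho than in Poly (1), and 4 higher and 48 lower in Ortho than in Pro (9 and 30). Without hemoglobin the counts were 9 and 7 for Baso against Pro, 2 higher in Ortho than in Poly, and 38 and 16 for Ortho against Pro, and with centring 10 and 7, 2, and 36 and 17. With the adjusted p as the only criterion they were 39 and 72 for Baso against Pro, 19 and 11 for Poly against Baso, 8 and 31 for Ortho against Poly, and 67 and 71 for Ortho against Pro. The cause of these moves was not tested. Apart from the adjusted p alone, the shares of all genes under these settings were not counted.

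A replicate block, in either model, gave these calls: 2 were higher in Ortho than in Poly, Slc25a51 and Slc15a2, and the block changed no other call. Leaving out each of the 12 libraries in turn gave 4 to 6 higher and 11 to 14 lower in Baso than in Pro, 0 higher and 1 to 4 lower in Poly than in Baso, 1 to 2 higher and 9 lower in Ortho than in Poly, and 8 to 14 higher and 27 to 32 lower in Ortho than in Pro. The count of 1 lower in Poly came without Baso replicate 3, that of 2 higher in Ortho than in Poly without Poly replicate 1 or Ortho replicate 3, and that of 14 without Ortho replicate 2. Depth is unknown, so no counting error can be given for genes with a low FPKM.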
